A study of Homo sapiens with 16 samples.

Results

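The comparison described here is between neurons sorted from human brain organoids at day 60 and neurons sorted at day 40, by where their chromatin was open. Its members are the 4 libraries whose titles give neurons at these stages, 2 for each stage, of 16 libraries in the series. Peaks of the 4 lists on chromosomes 1 to 22 and X were merged into 198712 regions, and each region was scored for a peak and for covered bases in each library. H9 cells, a widely used line of human embryonic stem cells, gave rise to the organoids; their genotype is given as WT, and all the groups carried the same pair of reporters. P2A-EGFP replaced the stop codon on one allele of SOX2, and dTomato under the human SYN1 promoter sat in AAVS1, a site inside PPP1R12C. Tissue of dorsal telencephalic kind, from which the cortex develops, was enriched in them. Neurons were the dTomato-positive cells, and the progenitors of days 40 and 60, used here only for comparison, were the EGFP-positive cells. The neurons are therefore those in which the SYN1 promoter was active.

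ATAC-seq, the assay used, cuts and tags DNA with the Tn5 transposase, which reaches only DNA that is not wrapped tightly around nucleosomes. Peaks mark such open stretches, which include the starts of active genes and the distal enhancers through which transcription factors set the identity of a cell. In cortical development the first neurons include Cajal-Retzius and subplate cells, followed by deep-layer and then upper-layer projection neurons, while inhibitory neurons arise in the ventral telencephalon. As the tissue ages, factors of the nuclear factor I (NFI) family come up, and young neurons turn from axon growth to the building of synapses. A peak list from sorted cells is an average: a change in the share of cells of a type and a change within each cell cannot be told apart here.

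The amount called differed between the lists and moved with the stage. The day 40 lists held 138432 and 117945 peaks over 104 and 97.9 Mb. The day 60 lists held 115950 and 80345 peaks over 83.4 and 54.8 Mb, and replicate 2 was the shortest of the 4. Read depth is unknown, so how deep each library was sequenced and how much was open cannot be told apart. Counts of regions and start windows, their presence in other libraries' lists (regions only), list likeness and the gene loci were therefore also computed on equal-length lists, in which each list longer than that of day 60 replicate 2 was cut to its 54.8 Mb by keeping the peaks with the highest −log10 p. The cut left peaks with a −log10 q (the authors' values) of at least 5.28 and 6.08 at day 40 and 4.27 in day 60 replicate 1. The list of day 60 replicate 2 was not cut. A site without a peak in a cut list may therefore have had a weaker one in the full list. Nothing in the labels ties the 2 libraries of a group to separate cultures. The p-values therefore reflect only how far these libraries differ, possibly for technical reasons. All 16 loci of a pan-neuronal list (DCX, TUBB3, MAP2 and others) had peaks in each of the 4 libraries. So did all loci of the radial glia and oligodendrocyte lists, so having a peak does not set neuronal loci apart. Summed over the pan-neuronal loci, scaled peaks covered 230 and 258 kb at day 40 and 251 and 217 kb at day 60. In progenitors they covered 178 and 170 kb at day 40 and 230 and 195 kb at day 60. At SOX2 and 20 kb on either side, peaks covered 3.76 and 3.90 kb at day 40 and 4.73 and 7.08 kb at day 60, after scaling each list to the median library total. All 4 values lay below those of the progenitors, which were 16.7 and 12.7 kb at day 40 and 12.4 and 10.3 kb at day 60. SYN1 had 2.48 and 3.10 kb at day 40 and 3.27 and 3.6 kb at day 60, and PPP1R12C had 3.19, 4.85, 2.93 and 4.74 kb in the same order. Neither locus was called, and the inserted promoter cannot be told from SYN1 itself in these lists.

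A start window runs from 250 bases before to 50 bases after an annotated start, and RefSeq (GRCh38.p14) gave 22132 such windows for 15812 protein-coding genes, 277 of the 384 listed genes among them. Windows with a peak in both day 60 libraries and in neither day 40 library numbered 43 (0.194% of all windows), and windows with the opposite pattern numbered 879 (3.97%). In equal-length lists they numbered 114 (0.515%) and 487 (2.2%), so windows open at day 40 only were the more numerous in both. In these sentences a window open at day 60 only has that 2-of-2 against 0-of-2 pattern, and likewise for day 40. The 250 bases before the start are shown for 3 windows of each direction that kept the pattern in full and in equal-length lists. They are single examples, and not all follow the base composition and motif shares described after them. The SOX2 window had 63.3% G and C and none of the motifs searched, and the ALDOA window had 56% G and C. Capitals mark matches to the E-box CAGATG, a second E-box (CAGCTG), the half-site TTGGC, the homeodomain motif TAATTA and the AP-1 motif TGANTCA on either strand, and a sequence without capitals holds none. SOX2, BDNF and RPL32 were open at day 60 only, and GRIN2A, ALDOA and ROBO2 at day 40 only.
SOX2, chr3:181711675-181711924, plus strand: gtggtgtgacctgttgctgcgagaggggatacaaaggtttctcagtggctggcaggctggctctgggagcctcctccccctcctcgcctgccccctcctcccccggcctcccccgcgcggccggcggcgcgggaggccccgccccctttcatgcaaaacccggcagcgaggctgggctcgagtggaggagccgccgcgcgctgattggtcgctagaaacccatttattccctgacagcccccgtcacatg
BDNF, chr11:27720780-27721029, minus strand: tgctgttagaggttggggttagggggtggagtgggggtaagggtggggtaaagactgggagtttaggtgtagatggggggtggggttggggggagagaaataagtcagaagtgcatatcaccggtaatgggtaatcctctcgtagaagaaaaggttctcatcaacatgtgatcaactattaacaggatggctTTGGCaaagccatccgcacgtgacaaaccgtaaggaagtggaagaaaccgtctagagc
RPL32, chr3:12840451-12840700, minus strand: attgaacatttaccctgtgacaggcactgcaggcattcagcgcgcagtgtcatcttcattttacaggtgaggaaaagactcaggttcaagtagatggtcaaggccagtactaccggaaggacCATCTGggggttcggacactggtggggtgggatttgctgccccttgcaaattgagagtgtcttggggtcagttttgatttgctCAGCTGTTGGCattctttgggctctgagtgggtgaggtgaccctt
GRIN2A, chr16:10182068-10182317, minus strand: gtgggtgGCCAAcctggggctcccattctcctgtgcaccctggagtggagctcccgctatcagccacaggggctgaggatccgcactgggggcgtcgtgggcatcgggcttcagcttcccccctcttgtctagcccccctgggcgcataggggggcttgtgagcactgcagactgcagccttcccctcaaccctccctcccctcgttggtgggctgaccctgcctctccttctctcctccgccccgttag
ALDOA, chr16:30064029-30064278, plus strand: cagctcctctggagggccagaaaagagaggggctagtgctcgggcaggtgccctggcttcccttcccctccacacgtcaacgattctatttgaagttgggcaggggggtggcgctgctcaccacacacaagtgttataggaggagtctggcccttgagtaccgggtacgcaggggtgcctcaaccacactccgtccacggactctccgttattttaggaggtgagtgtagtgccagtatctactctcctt
ROBO2, chr3:77039849-77040098, plus strand: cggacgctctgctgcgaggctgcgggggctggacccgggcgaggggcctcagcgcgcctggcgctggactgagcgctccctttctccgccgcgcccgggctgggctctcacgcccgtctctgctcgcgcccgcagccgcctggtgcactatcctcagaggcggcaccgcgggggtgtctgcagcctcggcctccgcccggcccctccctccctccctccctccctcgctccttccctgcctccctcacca

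The windows open at day 60 only were less rich in G and C than those open at day 40 only. Their median GC content was 50%, against 70% in the 879 windows of day 40, 62.3% in all windows and 65.3% in the 12444 windows open in all 4 libraries. CAGATG, the E-box that neurogenic basic helix-loop-helix factors such as NEUROD and NEUROG proteins prefer, stood in 32.6% of the 43 windows of day 60, 11.1% of those of day 40, 12.2% of all windows and 18.1% of the 6472 windows open in none of the 4. TTGGC, the half-site of NFI factors, stood in 65.1%, 41.6%, 46.3% and 44.7% in the same order. CAGCTG, another E-box, stood in 11.6% of day 60 windows and 18.0% of all windows, TAATTA, a homeodomain motif, in 9.30% and 3.40%, and TGANTCA, the AP-1 motif, in 11.6% and 6.15%. In windows open in none of the 4 these shares were 19.9%, 6.20% and 10.6%. In the 24 day 60 windows that kept the pattern at equal length, CAGATG stood in 37.5%, TTGGC in 62.5% and TGANTCA in 4.17%, the last below its share of all windows. No motif searched contains another, matches on both strands were counted once per window, and a match is a description of the letters and not of a bound site. With 43 windows, each share rests on few sequences.

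The SOX2 window was a progenitor window. It had a peak in all 8 progenitor libraries, in neither day 40 neuron library, in both at day 60, in 1 of 2 at day 90 and in both at day 120. The peaks there had a −log10 q of 5.5 and 4.49 (the authors' values), against list medians of 4.90 and 3.22. BDNF, which encodes a growth factor induced by neuronal activity, has 5 annotated start windows; the one shown was also open in both progenitor libraries of days 40, 60 and 90 and in neither at day 120, and in 1 of 2 neuron libraries at day 90 and none at day 120. RPL32, a ribosomal protein gene with 3 windows, had its window open in no library other than the 2 of day 60 neurons, at a −log10 q of 37.1 and 20.5. It holds 2 matches to CAGATG and 1 each to CAGCTG and TTGGC. The window of YIPF7, with 1 CAGATG and 2 TTGGC, was open in both neuron libraries of days 60, 90 and 120 and in none of the 8 progenitor libraries. Those of FER and STS ranked higher than YIPF7, held no CAGATG and were not particular to neurons. FER, at a −log10 q of 51.1 and 39.1, was open in both progenitor libraries of days 40, 60 and 90. STS, at 22.4 and 18.4, was open in 1 of 2 progenitor libraries at days 40 and 90.

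Windows open at day 40 only included those of receptors and of structural genes. GRIN2A, which encodes an NMDA receptor subunit, had a −log10 q of 23.6 and 38.4 at day 40, and its only window was open again in 1 of 2 libraries at day 90 and in both at day 120. ROBO2, an axon guidance receptor, had one of its 2 windows at 23.1 and 29.2, open in all 8 progenitor libraries, in both neuron libraries of day 90 and in 1 of 2 at day 120. The other listed windows of this kind with the highest ranks were those of ALDOA (a glycolytic enzyme, 2 of 3 windows), LRP8 (a reelin receptor), PLXNA2 (a semaphorin co-receptor) and STMN1 (a microtubule regulator, 1 of 3 windows). Of windows open at day 60 only, 37.2% had a peak in both neuron libraries of day 90, against 28.6% of those open at day 40 only and 61.1% of all windows. In both progenitor libraries of day 40 these shares were 25.6%, 63.4% and 64.3%.

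Over the whole genome, which stage had more regions of its own depended on the length of the lists. In the full lists 7552 regions (3.8%) were open at day 60 only and 32243 (16.2%) at day 40 only, while 49235 were open in all 4 libraries. In lists of equal covered bases the order turned: 16133 of 107541 regions (15%) were open at day 60 only and 7635 (7.1%) at day 40 only. The day 40 lists were cut at a higher −log10 q than those of day 60. Regions of day 60 at equal length may therefore include sites with weaker peaks at day 40, and were not all closed there. In lists of an equal number of peaks it was 12534 against 17307. Leaving out the short day 60 replicate 2 gave 34241 against 34838, and leaving out day 60 replicate 1 gave 17055 against 47011. In each case 1 library then stood for day 60. The number of regions gained or lost is thus not settled by these lists, and what follows describes which regions they were. An exact test of 2 libraries against 2 cannot give a p below 0.333, so the counts have no test.

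**Figure D1:**
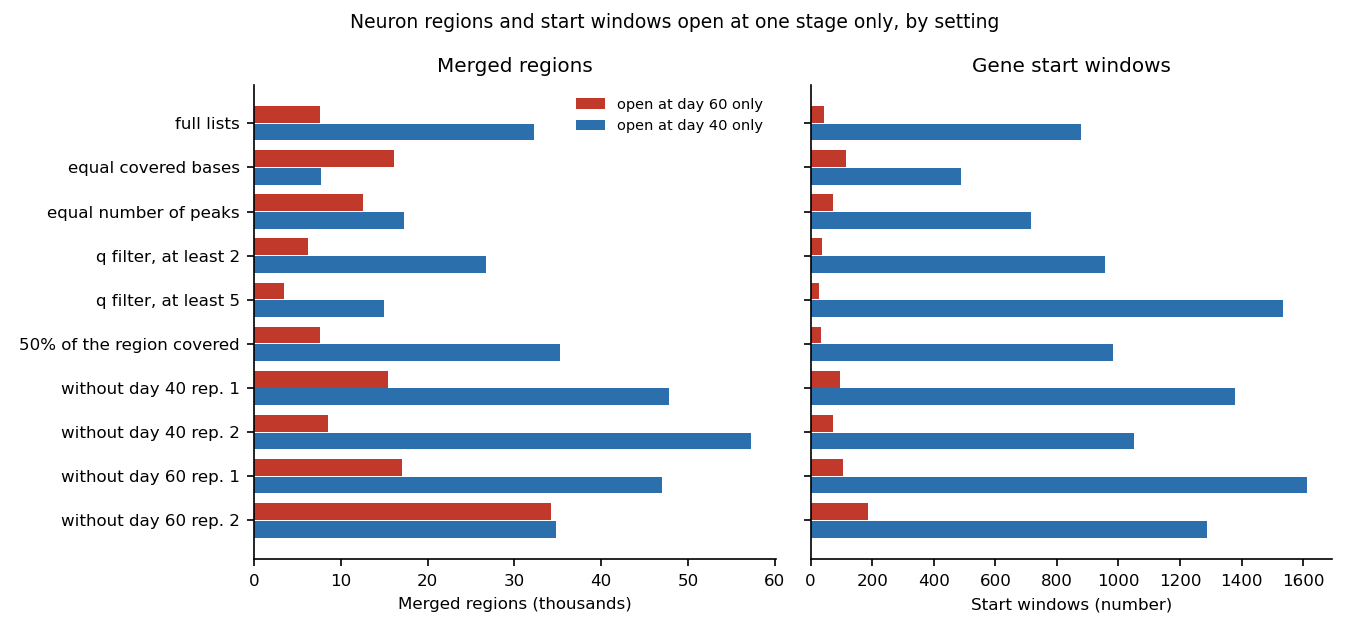
Merged regions (left) and gene start windows (right, number) with a peak in every library of one stage and none of the other, in neurons of days 40 and 60, with 1 pair of bars for each way of preparing the lists (red, day 60 only; blue, day 40 only). Regions of day 40 outnumber those of day 60 in full lists (32243 against 7552) and fall behind at equal covered bases (7635 against 16133), while start windows of day 40 are the more numerous in every setting drawn.

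Regions open at one stage only lay away from gene starts. Of those of day 60, 51.9% were inside a protein-coding gene and 0.853% within 1 kb of an annotated start, with a median distance of 87.4 kb. Of those of day 40, 46.9% were inside a gene and 1.37% within 1 kb, with a median distance of 123 kb. The regions open in all 4 libraries were nearer, with 63.5%, 23% and 35.7 kb. Among all regions the values were 55.4%, 6.91% and 67.4 kb. Regions of a single stage had a median width of 622 bases at day 60 and 704 at day 40. The median was 653 among all regions and 1240 for those open in all 4, which join peaks of 4 lists. Regions of a single stage made up 5.49% and 6.17% of the bases in the day 60 lists, and 19.5% and 21.3% of the bases in the day 40 lists. Chromosome 19 had the lowest share of both kinds, 1.99% for day 60 and 7.90% for day 40.

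Libraries that had no part in choosing the regions gave a further view. Of the 7552 regions open at day 60 only, 55.1% had a peak in day 90 replicate 1, 82.9% in day 90 replicate 2 and 51.9% in both. Of the 32243 regions open at day 40 only, 19.6% and 11.3% had one and 7.48% had one in both, against 37.7% in both for all regions. At day 120 the shares in both libraries were 29.6% for day 60 regions, 9.03% for day 40 regions and 30.9% for all. In each library of day 120 the shares were 41.4% and 34.4% for day 60 regions against 13.3% and 14.5% for day 40 regions, so day 60 regions had the higher share in all 4 later libraries.

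The progenitor lists showed the reverse order. Regions of day 60 neurons were open in both progenitor libraries in 6.37% at day 40 and 12.8% at day 60. Regions of day 40 neurons were open in 30.0% and 27.8%. The first was close to the 32.1% of all regions, and the second was below the 35.9% of all regions. The order was the same in equal-length lists, where 43.0% of day 60 regions and 4.90% of day 40 regions had a peak in both libraries of day 90, and 7.21% and 29.4% in both progenitor libraries of day 40. Later lists differ in length and quality as well, and the part of that in these shares was not tested beyond the equal-length lists. Day 60 regions of the equal-length lists may have had weaker day 40 peaks that were cut.

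**Figure D2:**
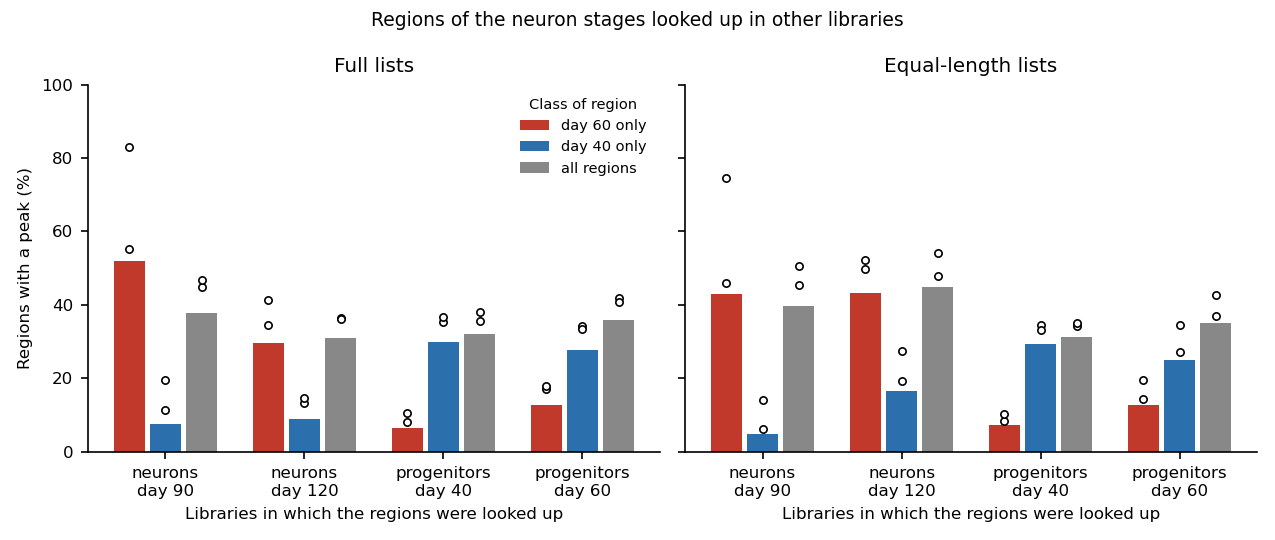
Share of regions (%) that had a peak in other libraries, for regions open in neurons at day 60 only (red), at day 40 only (blue) and for all regions (grey); bars give the share with a peak in both libraries of a group, open circles each library. Red bars stand above blue in later neurons (51.9% against 7.48% at day 90, full lists) and below blue in progenitors (6.37% against 30.0% at day 40).

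The Jaccard index is the number of bases covered in both of 2 lists divided by the number covered in either. In equal-length lists it was 0.609 for the 2 day 40 libraries and 0.499 for the 2 day 60 libraries, and on average 0.390 between the stages (0.366 to 0.416). Between day 60 and day 90 neurons it averaged 0.490. Between day 40 and day 90 neurons it averaged 0.400, about as high as between days 40 and 60. Day 60 replicate 1 was nearer to day 90 replicate 2 (0.581) than to the other library of its own group (0.499), and this held in the full lists as well (0.536 against 0.440). Replicate 2 was nearest to replicate 1 in equal-length lists (0.499), and in full lists it was about as near to day 90 replicate 2 (0.442) as to replicate 1 (0.440). The averages with progenitors of day 40 and of day 60 were 0.390 and 0.387 for day 40 neurons and 0.291 and 0.322 for day 60 neurons. With progenitors of day 90 they were 0.395 for day 40 neurons and 0.339 for day 60 neurons. These averages are of equal-length lists.

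**Figure D3:**
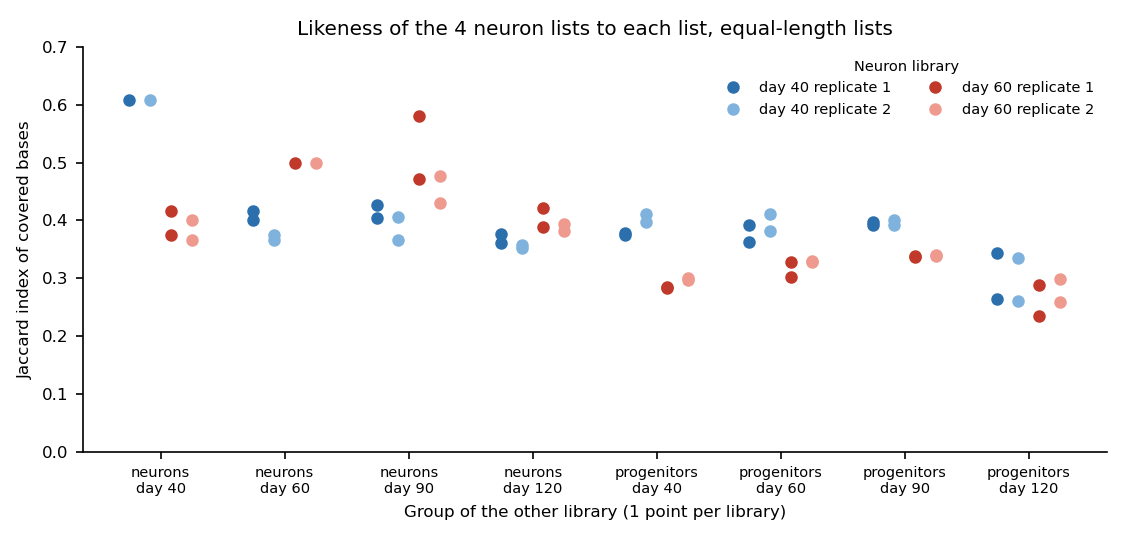
Jaccard index of covered bases (vertical axis) between each of the 4 neuron libraries (colours) and every other library, grouped by population and stage, in equal-length lists; each point is 1 library. Day 60 replicate 1 (dark red) has its highest value, 0.581, with a day 90 neuron library, and both day 60 libraries lie below both day 40 libraries against the progenitors of days 40, 60 and 90.

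To name genes, the bases covered by peaks in each protein-coding gene and 20 kb on either side were tested with limma over all 16 libraries, with a pseudocount of 500 bases, so that differences are on the log2(bases + 500) scale. In the full lists 579 of 18755 loci rose (3.09%) and 311 fell (1.66%). Equal-length lists gave 428 (2.34%) and 293 (1.6%) of 18286, of which 126 and 73 were also called in the full lists, in the same direction (21.8% and 23.5% of the full-list calls, 29.4% and 24.9% of the equal-length calls). All of these had both day 60 libraries on one side of both day 40 libraries in scaled values. Full-list kb values at loci are given scaled to the median library total, which raises those of the short day 60 replicate 2. The shares over all loci are the background for the counts given for gene lists. In the full lists 41.3% of all loci had both day 60 values above both day 40 values and 12.1% below, and in the equal-length lists 21.2% and 24.7%. The scaling of the full lists moved the median difference of all loci from −0.26 to 0.23, so list medians are set against that of all loci, which was −0.02 in equal-length lists. The balance of rises and falls turned with the scaling: 2 and 134 with no scaling, 121 and 525 with library medians set equal, 880 and 272 with the total taken off after the pseudocount.

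The calls rest on few libraries. A fit on the 4 neuron libraries alone called no locus by limma, with 2245 rises and 920 falls at an unadjusted p under 0.05. Leaving out day 40 replicate 2 left 5 rises and 16 falls, day 40 replicate 1 159 and 92, day 60 replicate 2 71 and 78, and day 60 replicate 1 821 and 429. Of the 53 loci named here that the full lists called, 49 lost the call without day 40 replicate 2, 37 without day 40 replicate 1, 37 without day 60 replicate 2 and 20 without day 60 replicate 1. Of 47 called in equal-length lists, 33 lost the call without some 1 of the 4. MAML2, SLIT3, AOAH and CD93 kept the full-list call without any 1 of the 4.

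Several loci of transcription factors of later cortical development rose. Of 10 late temporal genes, 4 rose and none fell in the full lists, against 3.09% and 1.66% of all loci. Their median was 0.10 above that of all loci. In equal-length lists 2 rose and none fell, against 2.34% and 1.6% of all loci, and the median was 0.26 above. NFIA, an NFI factor known for its role in the switch from making neurons to making glia (chromosome 1, 61077227 to 61462788), had 18.6 and 17.9 kb of peaks at day 40 and 41.8 and 33.6 kb at day 60. Both day 60 values lay above both at day 40. So did the later ones, 38.5 and 41.4 kb at day 90 and 34.4 and 31.3 kb at day 120. Before scaling, day 40 had 23.8 and 21.4 kb and day 60 had 42.7 and 22.6 kb, with overlap. The log2 difference was 1.02 ± 0.15 (SE, adjusted p = 0.00333), and 1.04 ± 0.12 in equal-length lists (10.6 and 10.4 against 21.6 and 22.6 kb, adjusted p = 0.00426). The locus held 9 regions open at day 60 only, 3 at day 40 only and 15 in all 4 libraries. Without day 40 replicate 2 the difference was 0.99 (adjusted p = 0.0598), and with no scaling it was 0.45 and not called.

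NFIB, a second member of the family, gave the same picture with a smaller change in the full lists. It had 36.9 and 30.9 kb at day 40 and 51.4 and 51.6 kb at day 60, a difference of 0.60 ± 0.14 (adjusted p = 0.0274), lost without day 40 replicate 2 (adjusted p = 0.193) or day 60 replicate 2 (0.096). In equal-length lists it went from 15.2 and 14 to 26.7 and 34.7 kb (1.03 ± 0.15, adjusted p = 0.00665) and held the call without any 1 of the 4 libraries. With no scaling the difference was 0.03. NFIX rose from 9.64 and 13.2 kb to 20.7 and 15.4 kb (0.64 ± 0.18, adjusted p = 0.0495). ZBTB18, a repressor needed for the maturation of cortical neurons, rose from 5.31 and 4.2 kb to 8.08 and 7.36 kb (0.65 ± 0.18, adjusted p = 0.0454). Unscaled values overlapped at both, with 12.3 and 15.8 against 21.2 and 10.3 kb at NFIX. At ZBTB18 they were 6.79 and 5.04 against 8.26 and 4.95 kb. Neither was called in equal-length lists (0.45 and 0.41), and each lost its call without any 1 of the 4 libraries. Start windows went the other way in part: 2 of NFIB and 1 of NFIX were open at day 40 only.

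SOX5, which acts in the specification of deep-layer projection neurons (chromosome 12, 23529504 to 24562650), had 47.2 and 41.7 kb at day 40 and 85.8 and 57.1 kb at day 60. The groups did not overlap, although the 2 day 60 libraries differed. The difference was 0.65 ± 0.18 (adjusted p = 0.0477), kept only without day 60 replicate 2 and lost without any other of the 4. In equal-length lists it was 1.0 ± 0.16 (24.1 and 16.5 against 42.4 and 38.4 kb, adjusted p = 0.0104), lost without day 60 replicate 1. It was the 1 of 12 deep-layer genes called in the full lists. FOXP2, another deep-layer gene, had 17.9 and 18.2 against 9.99 and 14.3 kb, not called in the full lists (−0.57 ± 0.17, adjusted p = 0.0606) and lower in equal-length lists (−0.95 ± 0.22, adjusted p = 0.0376), a call kept only without day 60 replicate 2.

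No upper-layer gene of 12 was called in the full lists, and equal-length lists called POU3F3 lower (−0.96 ± 0.22, adjusted p = 0.0400, against −0.10 in the full lists), kept only without day 60 replicate 2. MEF2C, which acts in synapse refinement, had 12.0 and 10.1 kb at day 40 and 15.7 and 16 kb at day 60 (0.51 ± 0.17, adjusted p = 0.0841). BHLHE22 had 3.76 and 4.29 against 5.32 and 6.45 kb (0.49 ± 0.18, adjusted p = 0.109); both differences turned slightly below 0 with no scaling. The 16 pan-neuronal genes and the 16 genes of synaptic vesicles and release gave no call in either kind of list, with medians of 0.11 and 0.09 in the full lists (0.23 for all loci) and −0.01 and 0.05 in equal-length lists (−0.02 for all loci). A p that misses the threshold does not show that these loci were the same.

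Few loci of early-born neurons passed the test, and most of their differences were below 0. Of 15 Cajal-Retzius and subplate genes, EBF3 fell and none rose in the full lists, where 1.66% of all loci fell and 3.09% rose. Of the 15, 11 had no positive difference, while 13076 of 18755 loci had a positive one. The list's median was 0.55 below that of all loci. EBF3, a factor of Cajal-Retzius cells, had 20.4 and 27.9 kb at day 40, 14.4 and 12.0 kb at day 60 and 11.0 to 13.2 kb at days 90 and 120. All 6 later neuron libraries lay below both of day 40. The difference was −0.84 ± 0.22 (adjusted p = 0.0383), lost without day 40 replicate 1 (0.056), day 40 replicate 2 (0.24) or day 60 replicate 2 (0.21), and it was −0.72 ± 0.18 in equal-length lists (adjusted p = 0.0509).

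Equal-length lists called more genes of this group, which were named after their values were seen. LHX5, which patterns the cortical hem and Cajal-Retzius cells, had 4.49 and 4.53 kb against 1.66 and 1.37 kb (−1.32 ± 0.18, adjusted p = 0.00526), a call that held without any 1 of the 4 libraries. CALB2, which encodes calretinin, had 4.17 and 4.23 against 1.86 and 1.43 kb (−1.14 ± 0.22, adjusted p = 0.0197), kept only without day 60 replicate 1. CCN2, a subplate marker, had 2.68 and 2.83 against 1.29 and 1.56 kb (−0.76 ± 0.17, adjusted p = 0.0354), kept only without day 60 replicate 2. LPAR1, another subplate gene, went the other way, from 0 in both day 40 lists to 2.34 and 2.15 kb (2.46 ± 0.30, adjusted p = 0.00426). In the full lists LPAR1 had 3.75 and 2.16 kb at day 40 against 2.73 and 3.19 kb, with groups that overlapped, so its peaks of day 40 were among those cut. In both kinds of list the median of the group lay below that of all loci, by 0.55 and 0.37.

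The GABAergic and ventral list had the lowest median of the 28 lists at equal length. None of its 14 members had a positive difference there, while 8561 of 18286 loci had one. The median was −0.57, against −0.02 for all loci. In the full lists 5 of 14 were positive, against 13076 of 18755 loci, and the median was −0.28, against 0.23. Summed over the list, peaks covered 59.1 and 75.9 kb at day 40 and 32.1 and 46.3 kb at day 60 in equal-length lists. GAD2, which encodes a GABA-synthesising enzyme, had 10.2 and 9.61 kb at day 40 and 3.65 and 6.65 kb at day 60 (−0.93 ± 0.21, adjusted p = 0.0259). GSX2, a factor of ventral progenitors, had 4.85 and 5.17 against 2.82 and 2.37 kb (−0.84 ± 0.21, adjusted p = 0.0344). Each kept its call without 1 of the 4 libraries only, GAD2 without day 60 replicate 2 and GSX2 without day 60 replicate 1, and neither passed in equal-length lists (−1.71 ± 0.67, adjusted p = 0.190, and −0.52 ± 0.31, adjusted p = 0.413). The windows of DLX1 and DLX2 overlap. Equal-length lists gave 7.54 and 7.65 against 1.98 and 3.83 kb at DLX1 (−1.31 ± 0.22, adjusted p = 0.0113) and −0.93 ± 0.23 at DLX2 (adjusted p = 0.0483), while the full lists gave −0.28 and −0.06 with no call. The DLX1 call was lost without day 40 replicate 2 (0.060) and the DLX2 call without any library but day 60 replicate 2. In the progenitor libraries the median difference of this list, day 60 minus day 40, was −0.04 in the full lists and −0.21 in equal-length lists.

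**Figure D4:**
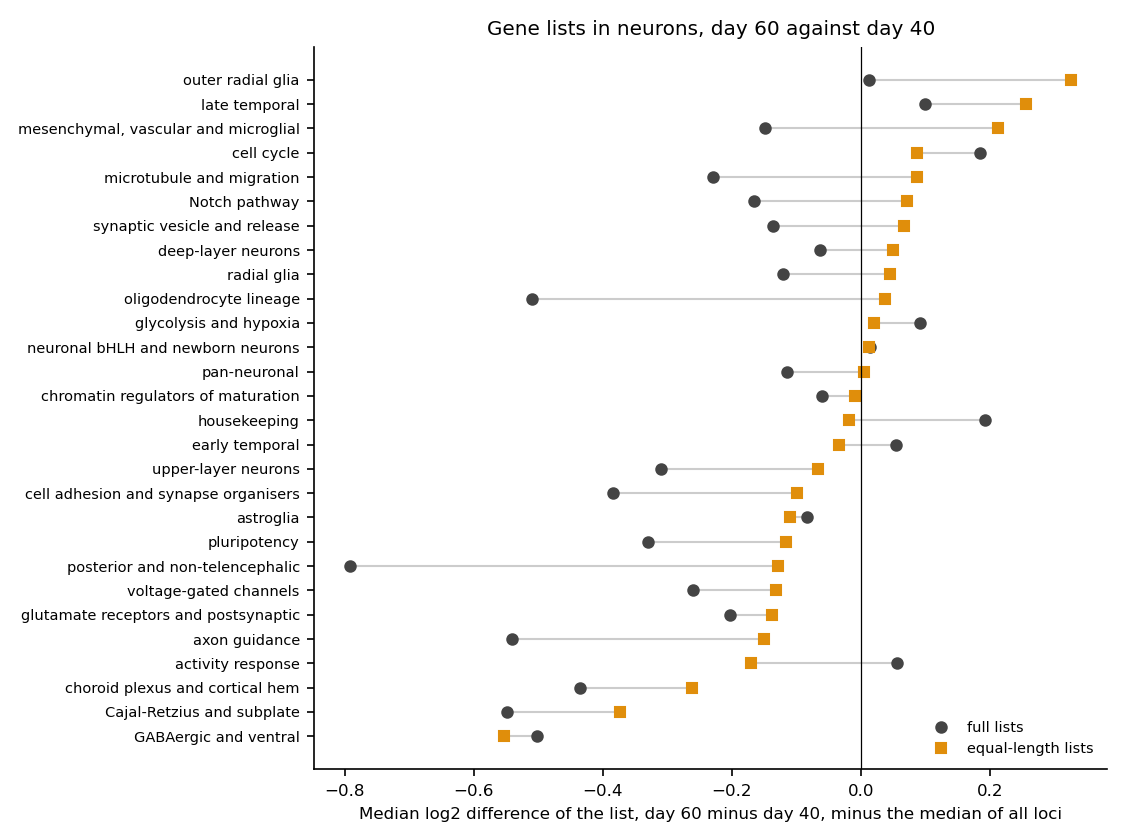
Median log2 difference of each gene list in neurons, day 60 minus day 40, after subtracting the median of all loci (horizontal axis), in full lists (circles) and equal-length lists (squares). The GABAergic and ventral list and the Cajal-Retzius and subplate list lie below 0 in both, and the late temporal list above 0 in both. Other lists do so too, among them choroid plexus and cortical hem below 0 (−0.44 and −0.26) and cell cycle above 0 (0.18 and 0.09).

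Axon guidance genes changed mostly downwards in the full lists. Of 20 genes, 5 fell and 1 rose, against 1.66% and 3.09% of all loci, and the median was 0.54 below that of all loci. In equal-length lists 3 fell and 1 rose, against 1.6% and 2.34%, and the median was 0.15 below. SLIT3, a secreted ligand of ROBO receptors (chromosome 5, 168661740 to 169301139), had 34.1 and 31.9 kb at day 40 and 14.2 and 12.4 kb at day 60. It stayed at 10.3 to 11.8 kb in the 4 later libraries, and held 27 regions open at day 40 only and 1 at day 60 only. The difference was −1.28 ± 0.17 (adjusted p = 0.00219) and −0.98 ± 0.24 in equal-length lists (adjusted p = 0.0485), where the call was lost without any 1 of the 4 libraries. UNC5C, a netrin receptor, had 22.4 and 20.3 against 12.4 and 15.1 kb (−0.63 ± 0.14, adjusted p = 0.0252; equal-length −0.79 ± 0.14, adjusted p = 0.0154). SEMA3C, a secreted semaphorin, had 17.7 and 15.1 against 8.39 and 7.77 kb (−0.97 ± 0.18, adjusted p = 0.0103), with 14.4 and 11.5 kb at day 120. EFNB2, a ligand of EPH receptors, rose from 7.10 and 7.31 to 13.0 and 11.4 kb (0.72 ± 0.17, adjusted p = 0.0273). Its unscaled values overlapped, with 9.07 and 8.77 against 13.3 and 7.69 kb. SEMA3C and EFNB2 were not called in equal-length lists. In the full lists UNC5C kept its call only without day 60 replicate 2, SEMA3C only without day 60 replicate 1, and EFNB2 lost it without any 1 of the 4. At equal length UNC5C lost it without day 40 replicate 1 or day 60 replicate 1.

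Adhesion genes gave falls and no rise in the full lists. Of 18 adhesion and synapse organiser genes, 3 fell, against 1.66% of all loci. Of the 1302 regions at them, 24.7% were open at day 40 only, against 16.2% of all regions. In equal-length lists this was 13.1% against 7.1%. The share open at day 60 only was also above that of all regions, 4.76% against 3.8% and 18.2% against 15%. NRXN3, a presynaptic adhesion molecule, had 65.0 and 69.8 kb at day 40 and 31.6 and 39.3 kb at day 60 (−0.93 ± 0.14, adjusted p = 0.00452), with 62 regions open at day 40 only and 4 at day 60 only. CNTNAP5 (−0.85 ± 0.19, adjusted p = 0.0252) and CNTN4 (−0.67 ± 0.15, adjusted p = 0.0239), adhesion molecules of axons, fell too. None of the 3 was called in equal-length lists, where NRXN3 stood at −0.44 ± 0.16 and the 1 call of the list was a rise. NLGN1, a postsynaptic adhesion molecule, had 14.5 and 14.9 against 23.5 and 20.9 kb there (0.57 ± 0.13, adjusted p = 0.0365), kept only without day 60 replicate 2, and 0.38 with no call in the full lists. NRXN3 lost its call without day 40 replicate 2 (0.072), and CNTNAP5 and CNTN4 without any 1 of the 4.

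Ion channels and receptors gave single calls in both directions. KCNMA1, a calcium-activated potassium channel, had 33.9 and 37.9 kb at day 40 and 21.4 and 17.2 kb at day 60, lower in the full lists (−0.89 ± 0.19, adjusted p = 0.0217) and in equal-length lists (−0.86 ± 0.19, adjusted p = 0.0348). Its groups did not overlap in either, and the full-list call was lost without day 40 replicate 1 (0.061), day 40 replicate 2 (0.16) or day 60 replicate 2 (0.13). The equal-length call was kept only without day 60 replicate 2. CACNA2D3, a calcium channel subunit, fell from 31.3 and 36.8 to 18.1 and 16.4 kb, and GRM7, a presynaptic glutamate receptor, from 25.4 and 24.5 to 14.8 and 14.7 kb (−0.95 and −0.74, adjusted p = 0.00840 and 0.0137), in the full lists only. HOMER1, a scaffold of the postsynaptic density, rose from 3.36 and 3.05 to 5.18 and 6.92 kb and reached 10.1 and 7.16 kb at day 120 (0.81 ± 0.21, adjusted p = 0.0372), and was not called at equal length (0.57 ± 0.19, adjusted p = 0.134). The calls of GRM7 and HOMER1 held only without day 60 replicate 1, and CACNA2D3 lost its call without day 40 replicate 2 or day 60 replicate 2. Over the whole lists, 1 of 18 glutamate receptor and postsynaptic genes rose and 1 fell, and 2 of 16 channel genes fell, in the full lists. Of all loci 3.09% rose there and 1.66% fell.

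**Figure D5:**
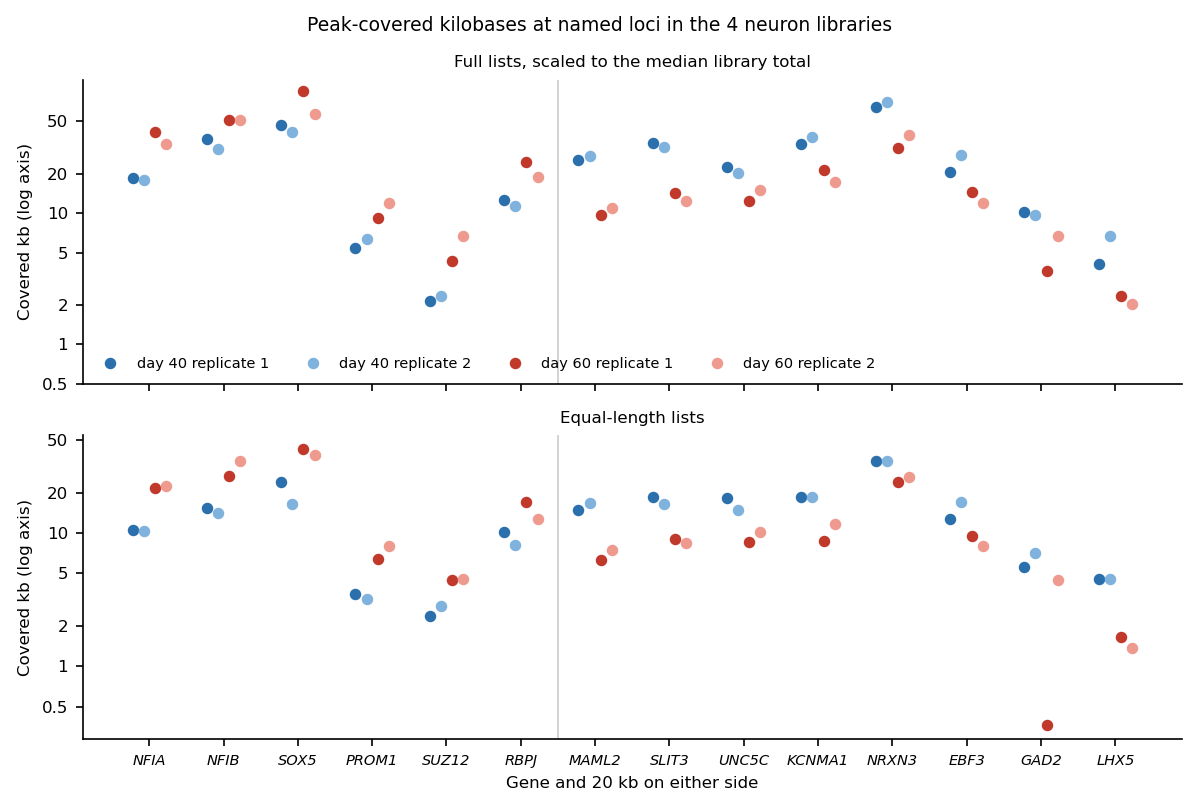
Kilobases covered by peaks in each gene and 20 kb on either side (log axis) in the 4 neuron libraries (blue, day 40; red, day 60), in full lists scaled to the median library total (top) and in equal-length lists (bottom); genes to the left of the grey line were higher at day 60 and those to the right lower. NFIA stands at 18.6 and 17.9 kb at day 40 and 41.8 and 33.6 kb at day 60, and MAML2 at 25.3 and 27.3 against 9.62 and 11.0 kb, with no overlap in either kind of list.

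Genes of Notch signalling, which holds progenitors back from becoming neurons, changed in opposite directions. MAML2, a co-activator of the Notch complex (chromosome 11, 95976598 to 96343195), fell from 25.3 and 27.3 to 9.62 and 11.0 kb, with 18 regions open at day 40 only and none at day 60 only. Its difference of −1.31 ± 0.16 (adjusted p = 0.00134; equal-length −1.15 ± 0.13, adjusted p = 0.00384) was called without any 1 of the 4 libraries in both kinds of list and with no scaling. RBPJ, the DNA-binding factor of the same complex, rose from 12.6 and 11.3 to 24.5 and 18.8 kb (0.82 ± 0.21, adjusted p = 0.0411). The call was lost without any 1 of the 4 libraries and in equal-length lists (0.67 ± 0.29, adjusted p = 0.246). Before scaling the groups overlapped, with 16.2 and 13.6 kb at day 40 and 25.1 and 12.6 kb at day 60. NOTCH1 was called only in equal-length lists (1.35 ± 0.22, adjusted p = 0.0112), with 1.65 and 3.37 against 7.35 and 6.38 kb, and gave 0.15 in the full lists. It lost the call without day 60 replicate 1 (0.060).

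Genes of progenitors and of chromatin regulation gave 1 or 2 calls a list. In the full lists 1 of 17 radial glia genes and 2 of 18 chromatin regulators rose, and 1 of 10 outer radial glia genes fell. Of all loci 3.09% rose there and 1.66% fell. In equal-length lists 1 gene of each of these 3 lists rose and none fell, against 2.34% and 1.6% of all loci. Of 17 radial glia genes PROM1, a membrane glycoprotein of neural stem cells, rose from 5.47 and 6.36 to 9.16 and 11.9 kb (0.77 ± 0.18, adjusted p = 0.0278; equal-length 0.99 ± 0.19, adjusted p = 0.0174), in the full lists kept only without day 60 replicate 1. PTPRZ1, an outer radial glia gene, was called in equal-length lists alone (0.80 ± 0.16, adjusted p = 0.0216; 0.19 in the full lists), and BMP7 of the same list fell in the full lists (−1.03 ± 0.27, adjusted p = 0.0432). The BMP7 call was lost without any 1 of the 4 libraries (adjusted p = 0.104 to 0.210), and at equal length the difference was −1.18 ± 0.31 (adjusted p = 0.0598). The PTPRZ1 call was lost without day 40 replicate 2 or day 60 replicate 1. SUZ12, a core subunit of the Polycomb repressive complex, rose from 2.15 and 2.35 to 4.33 and 6.69 kb (1.10 ± 0.25, adjusted p = 0.0234; equal-length 0.68 ± 0.15, adjusted p = 0.0299), also kept in the full lists only without day 60 replicate 1 and lost at equal length without any 1 of the 4. EED, its partner subunit, was called in the full lists at 0.79 and stood at −0.03 in equal-length lists. TOP2A, a topoisomerase of dividing cells, rose in the full lists (1.46 and 1.49 against 2.52 and 4.86 kb, adjusted p = 0.0453) but had 1.10 and 1.10 kb against 0.991 and 3.27 kb at equal length, where the groups overlapped, and the full-list call was kept only without day 60 replicate 1.

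Housekeeping loci were not level in the full lists. Of 14 none was called, but 12 had a positive difference, as did 13076 of all 18755 loci. The median was 0.42, 0.19 above that of all loci, and in equal-length lists it was −0.04. Cell cycle genes had a median 0.18 above all loci in the full lists and 0.09 in equal-length lists, with 1 of 15 called in each, TOP2A upwards and MCM5 downwards. Regions open in all 4 libraries held 75.9% of the bases of day 60 replicate 2 and 51.6% to 59.2% of those of the other 3. The part of this in the rises named here was not tested beyond the equal-length lists.

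Markers of other cell types were open in all 4 libraries, and few changed. Summed over 17 radial glia loci, peaks covered 108 and 129 kb at day 40 and 144 and 134 kb at day 60, against 167 to 198 kb in the 4 progenitor libraries; in equal-length lists the neuron values were 78.6 and 105 kb at day 40 and no lower than 90.4 kb at day 60, and the groups overlapped. Of 11 astroglial loci at most 2 had no covered bases in a library, and of 10 oligodendrocyte genes MBP fell (−0.92 ± 0.25, adjusted p = 0.0495), kept only without day 60 replicate 1. At equal length MBP stood at −1.35 ± 0.50 with no call (adjusted p = 0.168). TCF7L2 was the 1 of 13 posterior genes called in the full lists (−0.81 ± 0.20, adjusted p = 0.0336), and the median of that list was 0.79 below that of all loci there and 0.13 below it in equal-length lists. RSPO2, a hem gene, fell by 0.90 in the full lists and stood at 0.04 in equal-length lists, and COL1A2, a collagen of mesenchymal cells, fell by 1.51 (adjusted p = 0.0308) and stood at −0.73 with no call. GBX2, of the posterior list, was not called in the full lists (−0.81) and was higher in equal-length lists (2.22 ± 0.37), where both day 40 lists had 0. The full-list calls of TCF7L2 and RSPO2 were lost without any 1 of the 4 libraries, that of COL1A2 was kept only without day 60 replicate 2, and the equal-length call of GBX2 was lost without day 40 replicate 2 (0.061). The part of these cell types in the changes of neuronal genes was not tested.

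The largest differences called in both kinds of list were mostly at sparsely covered loci. The 10 upward ones, among them CCR3 (2.22 ± 0.49, adjusted p = 0.0231), PP2D1, SYCP3, ZNF366 and WDR89, ran from 1.56 to 2.22, and the 10 downward ones, among them ANGPT4, CD93, AOAH, PTPRB and STEAP3, from −1.83 to −2.69. CCR3, a chemokine receptor gene on chromosome 3, had 0.326 and 0.171 kb at day 40 and 3.13 and 2.82 kb at day 60. WDR89 had 1.82 and 1.22 kb at day 40, 5.62 and 5.22 kb at day 60 and 6.09 to 7.40 kb in the 4 later libraries, all 6 above both of day 40. Its difference was 1.56 ± 0.24 (adjusted p = 0.00448), lost only without day 40 replicate 2 (0.075).

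The largest falls included loci with no peak left at day 60. CD93, which encodes a surface receptor of endothelial and myeloid cells (chromosome 20, 23079360 to 23086324), had 2.57 and 2.30 kb at day 40 and no covered bases in either day 60 list (−2.55 ± 0.35, adjusted p = 0.00219). ANGPT4, a ligand of the endothelial TIE2 receptor, likewise went from 2.30 and 3.21 kb to none (−2.69 ± 0.44, adjusted p = 0.00663). PTPRB, a vascular phosphatase, fell from 4.04 and 3.92 to 0.733 and 0.779 kb (−1.83 ± 0.41, adjusted p = 0.0238). With a group at 0 these fitted differences depend on the pseudocount and give no fold. AOAH, which encodes a lipase of myeloid cells (chromosome 7, 36512941 to 36724494), fell from 11.7 and 11.6 to 2.72 and 1.87 kb (−2.13 ± 0.22, adjusted p = 0.000264), with 10 regions open at day 40 only and none at day 60 only, and was at 3.18 to 5.81 kb in the 4 later libraries. The mesenchymal, vascular and microglial list as a whole had 1 fall and no rise among 13 in the full lists and 1 rise and no fall in equal-length lists. At equal length CD93 lost its call without any 1 of the 4 libraries (adjusted p = 0.075 to 0.115), and AOAH kept it only without day 60 replicate 2. In the full lists ANGPT4 lost its call without day 40 replicate 2 (0.084), PTPRB kept its call only without day 60 replicate 1, and CCR3 lost its call without any 1 of the 4 (0.053 to 0.16).

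Few changes were called as different from those of progenitors over the same days. The test of that difference passed at 23 loci (0.123%) in the full lists and 173 (0.946%) in equal-length lists. SOX5 changed by 1.36 more in neurons than in progenitors in equal-length lists (adjusted p = 0.0309), NFIA by 0.92 more (adjusted p = 0.0433) and MAML2 by 0.91 less (−0.91, adjusted p = 0.0473), and none of the 3 passed in the full lists (adjusted p = 0.121, 0.0685 and 0.139).

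Single regions that kept the pattern in full and equal-length lists are named by the rank of their weaker peak. Among the strongest of day 60 at listed genes was one inside DCLK1 (chromosome 13, 36061211 to 36062299, −log10 q of 32.5 and 11.5), a kinase of migrating neurons. Others stood 12469 bases outside GRIA1, a glutamate receptor gene, and inside DSCAM and CDH12, adhesion genes. These 4 were closed in both progenitor libraries of days 40 and 60, and 3 of them, all but that of DSCAM, were open in both neuron libraries of day 90. The DCLK1 region was also open in both progenitor libraries of day 90 and in 1 of 2 at day 120. That of CDH12 was open in 1 of 2 progenitor libraries at day 120, and those of GRIA1 and DSCAM in no progenitor library. Over all genes the strongest lay on chromosome 3 at 89690601 to 89691195, 208467 bases from EPHA3, with 46.1 and 21.9. It was open in both neuron libraries of days 90 and 120, in both progenitor libraries of days 60 and 90 and in 1 of 2 at day 120.

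The 6 strongest of day 40 at listed genes lay 19024 bases outside SCG2 (chromosome 2, 223621385 to 223622643, 26.4 and 34.1), a secretory granule protein, 9126 bases outside KIF5C, a kinesin, inside NCAM1, CUX1 and CNTNAP2, and 16642 bases outside DLG2. Those of KIF5C, NCAM1 and CUX1 were open in all 8 progenitor libraries, and that of DLG2 (chromosome 11, 83437895 to 83438370) in no library other than the 2 of day 40 neurons. None of the 6 was open in both neuron libraries of day 90, and only that of CUX1 was open in both at day 120. Sequences of these distal regions were not used here.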

How the data were processed

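ATAC-seq peaks of sorted organoid cells were deposited by the authors as 1 broad-peak list per library, each called alone, on hg38. MACS2 2.1.2, SAMtools 1.9, BWA 0.7.17, Trim Galore 0.5.0 and Picard are listed in the submitters' processing notes. The deposited columns used are the authors' fold enrichment ratio, −log10 p and −log10 q per peak, and the score column was not used. Reads and depth were not used here. Peaks off chromosomes 1 to 22 and X were left out.

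A region or window was open in a library where a peak overlapped it by at least 1 base. Covered bases in each of 19974 RefSeq (GRCh38.p14) protein-coding genes and 20 kb on either side were scaled by the median library total over the library's own, and log2(bases + 500) was fitted with limma 3.58.1 (R 4.3.3, trend) on 16 libraries with 8 group means, for loci with at least 500 bases in 2 libraries. P-values were adjusted by Benjamini-Hochberg over all loci, threshold 0.05. The code was tested on simulated data. Named loci were the 10 largest in each direction called in both kinds of list, up to 4 called members of each of 28 gene lists (or 2 uncalled), the strongest regions and start windows (some of these regions are not reported here), and the reporter loci; list members called only at equal length were added after their values were seen. Members, lists and tests were chosen with earlier results of these data known. Alternatives covered list length, scaling, pseudocount, flank, filter, peak threshold, overlap, samples in the fit, replicate block and left-out libraries.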

Additional observations from a re-analysis of the deposited data

Results flagged for a closer look

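The change from day 40 to day 60 was tested for a difference between neurons and progenitors, and it differed at 23 loci in the full lists and 173 in equal-length lists (limma, adjusted p under 0.05). Among the loci named in the report, ANGPT4 changed by −3.97 on the log2 scale in neurons relative to progenitors, with no covered bases in either day 60 neuron list. AOAH changed by −1.70 relative to progenitors, which had 7.77 and 7.36 kb at day 40 and 5.08 and 5.87 kb at day 60. HOMER1 changed by 1.67 relative to progenitors, where it went from 5.91 and 4.82 kb to 2.60 and 2.84 kb. In equal-length lists the difference passed at ANGPT4 (adjusted p = 0.0247) and not at AOAH (0.109) or HOMER1 (0.0748). Causes were not tested.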

How the results depend on the processing

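Regions open at day 60 only and at day 40 only numbered 16133 and 7635 at equal covered bases, 12534 and 17307 at an equal number of peaks, and 3443 and 14990 at a −log10 q of at least 5. Leaving out 1 library gave 8451 to 34241 and 34838 to 57269. Start windows numbered 114 and 487, 74 and 715, and 26 and 1536 under the same list settings, and 71 to 186 and 1051 to 1613 without 1 library. Without day 60 replicate 2 and with the other 3 lists cut to equal covered bases, chosen after seeing the data, regions numbered 46221 and 20381 and start windows 267 and 1104. Of day 60 regions, 43.0% were in both day 90 neuron lists at equal length and 43.3% where peaks had to cover 50% of a region, and of day 40 regions 4.90% and 6.71%.

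Rises, falls and differences from progenitors numbered 2, 134 and 0 with no scaling, 880, 272 and 72 with the total taken off after the pseudocount, 121, 525 and 82 with medians set equal, 1021, 418 and 71 with a 50 kb flank, and 213, 146 and 1 by number of peaks. Differences from progenitors numbered 173 at equal length and 67 at a −log10 q of at least 2. The 8 neuron libraries gave 49 rises and 91 falls, and the 4 neuron libraries alone 0 and 0 by limma (2245 and 920 at an unadjusted p under 0.05). Without 1 library the counts were 5 to 821, 16 to 429 and 0 to 176, and in equal-length lists 143 to 318, 47 to 419 and 32 to 252.

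Replicate numbers did not pair the libraries: over 28 pairs of groups the correlation of deviations ran from −0.131 to 0.204. With the replicate number as a block the full lists gave 531 rises, 298 falls and 27 differences from progenitors, and equal-length lists 362, 251 and 97. Over 90 named loci and 18 alternatives, 1165 results kept their side of the threshold, changes of sign between uncalled values included, 418 lost the call and 30 gained one. In 3 more, with a call on one side, the sign turned, each at equal length: EED (−0.026), GBX2 (2.22) and RSPO2 (0.037). The direction was the same under every alternative for 67 of the 90 loci. The causes were not tested. Without read depth, a missing peak cannot be told from a shallow library.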
